A study of Sus scrofa with 9 samples.

Results

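Collagens are the proteins of the extracellular matrix that give the myocardium its tensile strength, and their genes were described here in porcine hearts donated after circulatory death (DCD). Members were chosen by name, as every row of the expression table whose symbol is COL, a number, A and a number. This gave 28 of the 25149 listed genes, of which 9 encode fibrillar chains, 3 encode type IV chains of the basement membrane and 16 encode other types. Of these, 17 had at least 1 TPM in at least 3 hearts and were tested. TPM is a read count divided by gene length and scaled to a total of 1000000 in each heart, so that levels can be compared between genes.

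The hearts came from 9 female American Yorkshire pigs aged 4 to 6 months, 3 in each group, and each heart gave 1 apex biopsy. All hearts underwent 15 min of warm ischemia and, at the end, 2 h of normothermic machine perfusion (NMP), a warm blood perfusion on the bench. Group 1 (NRP + HOPE 24 h, pigs 27, 28 and 30) received 60 min of normothermic regional perfusion (NRP), which restarts the circulation inside the donor, and then 24 h of hypothermic oxygenated perfusion (HOPE) at 8 °C. Group 2 (NRP + SCS 2 h, pigs 24, 25 and 29) received the same NRP and then 2 h of static cold storage (SCS) at 4 °C. Group 3 (No NRP + HOPE 2 h, pigs 31, 33 and 34) was procured directly and received 2 h of HOPE at 8 °C. Groups 1 and 2 therefore differ in storage method, temperature and duration, Groups 2 and 3 differ in NRP, storage method and temperature, and Groups 1 and 3 differ in NRP and in duration, and these cannot be told apart. As a model, these were young hearts reperfused without load. In Groups 1 and 2 the cannulas were in place before life support was withdrawn, and none of the 3 groups was spared ischemia or NMP.

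A collagen molecule is a triple helix of 3 chains, made in the endoplasmic reticulum, where prolines and lysines are hydroxylated before the chains fold. The fibrillar types I and III form the cables between cardiomyocytes, with type V inside the fibril setting its diameter. Type IV forms the sheet-like network of basement membranes around vessels and muscle cells, and type VI forms beaded filaments beside it. Fibroblasts make most of the fibrillar collagen of the heart, and vascular cells contribute much of type IV. After ischemic injury, collagen genes are known to rise late, over days, as scar tissue is made.

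The labels call the samples cardiomyocytes. Cardiomyocyte markers dominated, with 18621 to 33656 TPM summed over the 7 of 10 markers listed, but fibroblast markers (5 of 8 listed, summed 345 to 578 TPM), endothelial markers (5 of 8, 177 to 410 TPM) and mural markers (6 of 7, 194 to 442 TPM) were present in every heart, as in whole tissue. The smooth muscle myosin gene MYH11 was listed at 0 in all 9 hearts. Leukocyte markers (4 of 7 listed) summed to 21.0 to 48.3 TPM, mesothelial markers (2 of 5) to 2.86 to 12 TPM, Schwann cell markers (3 of 5) to 0.628 to 5.16 TPM and adipocyte markers (2 of 4) to 0.0656 to 1.97 TPM. Between 38.2% and 55.3% of TPM belonged to 13 mitochondrially encoded genes. In such bulk tissue, fewer cells of a type and less RNA per cell cannot be told apart. Read depth is unknown, because TPM keeps no counts, so the precision of a value is given by the spread between 3 hearts.

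A few chains dominated the collagen RNA that was analysed. COL3A1 (ENSSSCG00000016034), the single chain of type III collagen, had the highest mean level of the 28 genes, at 454.7 TPM over the 9 hearts. COL4A2 (ENSSSCG00000009545), a chain of the ubiquitous type IV network, followed at 187.5 TPM, and COL1A2 (ENSSSCG00000015326), the second chain of type I collagen, at 120.7 TPM. These 3 genes made up 75.6% to 80.2% of the summed TPM of the 17 genes in each heart, and COL3A1 alone 40.8% to 51.8%. These shares are of the 17 tested genes and not of all collagen RNA. The partner chains COL1A1 and COL4A1, and COL18A1, were among 9 collagen genes not analysed here, so the place of COL3A1, COL4A2 and COL1A2 in the order holds only for the chains described. COL6A1, the third main chain of type VI, has an identifier with no symbol in the table, lies outside the rule and was listed at 0 in all 9 hearts.

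Below them stood COL6A2 at 75.7 TPM and COL6A3 at 24.0 TPM, both chains of type VI. COL15A1, which encodes a collagen that links basement membranes to the fibrils around them, averaged 28.5 TPM. The 3 chains of the fibril-regulating type V averaged 23.2 TPM (COL5A2), 23.1 TPM (COL5A1) and 12.4 TPM (COL5A3). COL14A1 and COL12A1, which encode collagens that sit on the surface of fibrils, averaged 11.7 and 10.7 TPM. The remaining tested genes were low, from 4.50 TPM for COL8A1, a short-chain collagen of vessel walls, through 2.17 TPM for COL16A1, 1.49 TPM for COL13A1, 1.40 TPM for COL7A1 and 1.0 TPM for COL4A5 to 0.846 TPM for COL27A1. These are means over all 3 groups, and neighbours in the order are not settled among COL15A1, COL6A3, COL5A2 and COL5A1, among COL5A3, COL14A1 and COL12A1, or from COL16A1 down to COL27A1. COL13A1 averaged 0.966, 0.757 and 2.74 TPM in Groups 1, 2 and 3, for example, against 1.52, 1.41 and 1.28 TPM for COL7A1. The plot of levels shows that the 3 groups overlap for most genes and that genes differ far more than groups do.

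**Figure D1:**
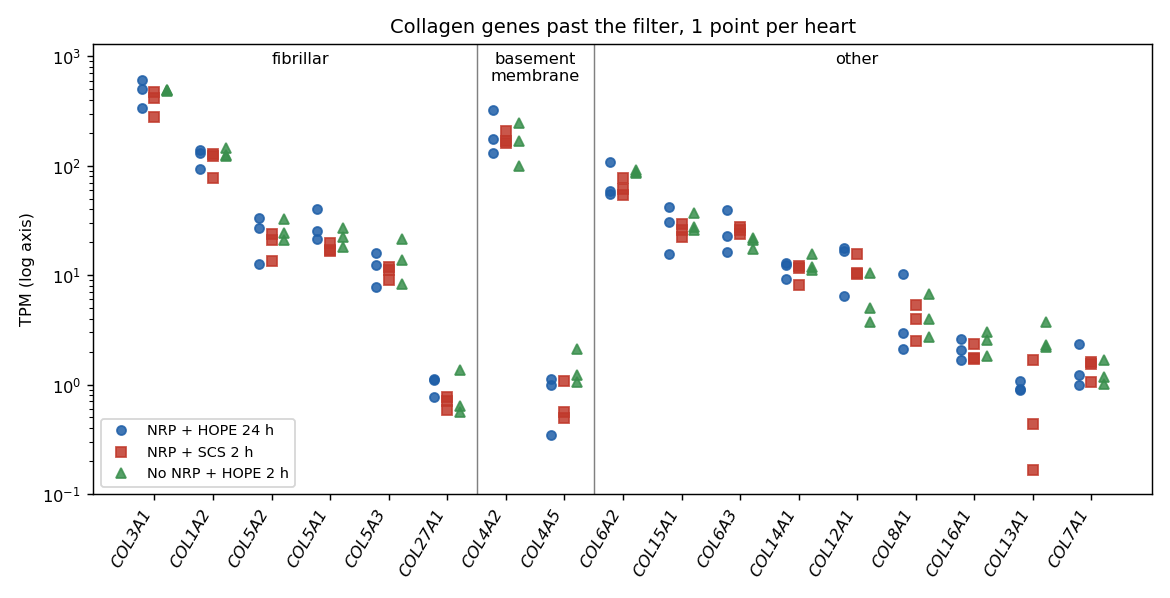
TPM (log axis) of the 17 collagen genes past the filter, ordered by class and mean level, with 1 point per heart and colour and shape giving the group. Levels run from 609.5 TPM for COL3A1 to 0.165 TPM for COL13A1, and the groups overlap for most genes.

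The 11 genes under the filter were at or near the floor of the table. COL2A1 and COL10A1, collagens of cartilage, were listed at 0 in all 9 hearts, and 9 others had a value above 0 in at least 1 heart. The highest of these 9 was COL28A1, at 3.95 TPM in pig 34 and at most 0.895 TPM in the other 8 hearts, so that its mean of 0.890 TPM rests on that heart. COL11A2, a chain of the fibrillar type XI that was singled out after its values were seen, read 0.0446, 0.0518 and 0.116 TPM without NRP, against 0.341 to 0.981 TPM in the 6 hearts with NRP. Group 3 did not overlap Group 1 or Group 2, but all values are under 1 TPM. Among the 11782 tested genes, which leave COL11A2 out, 10.3% were lower without overlap in Group 3 than in Group 2. A share of 2.97% was higher without overlap in Group 1 than in Group 3. Because these values picked the gene, its p-values below are not an independent test. In a limma fit with no filter, COL11A2 was lower without NRP than in Group 2 by 0.50 ± 0.16 (SE) on the log2(TPM + 1) scale, with an unadjusted p of 0.0119 and an adjusted p of 0.704. In the same fit Group 1 was above Group 3 by 0.53 ± 0.16 for COL11A2 (unadjusted p of 0.00848, adjusted p of 0.7 by limma). The fold change of COL28A1 was -0.90 ± 0.38 (unadjusted p of 0.0406, adjusted p of 0.903 by limma). Pig 34 was far the highest heart for COL28A1. Pigs 31 and 33, at 0.710 and 0.686 TPM, also lay above the 0.204 to 0.410 TPM of Group 1. Just inside the filter were COL27A1, with 3 hearts at 1 TPM, and COL4A5 and COL13A1, with 5 each, and just outside it was COL28A1, with 1.

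The summed level of the 17 genes was 724, 1022 and 1400 TPM in Group 1, 685, 927 and 1015 TPM in Group 2 and 956, 1125 and 999 TPM in Group 3. The means were 1048 ± 339, 876 ± 171 and 1027 ± 87.5 TPM (SD, n = 3), and the groups overlapped. Pig 30 of Group 1 stood highest and pig 24 of Group 2 lowest. Fibrillar genes carried most of this sum, with 672 ± 183, 549 ± 135 and 684 ± 12.9 TPM in Groups 1, 2 and 3. On the TPM scale, the 3 hearts without NRP lay close together, between 669 and 692 TPM, whereas Group 1 ran from 478 to 841 TPM. Median-of-ratios scaling divides pigs 31, 33 and 34 by 0.781, 1.08 and 1.18, and pigs 27, 28 and 30 by 0.737, 0.916 and 1.34. On that scale the range of Group 3 is wider than that of Group 1, so the closeness holds in TPM only. The type IV genes summed to 212 ± 99.5, 180 ± 26.5 and 174 ± 74.8 TPM, and the other genes to 165 ± 63.6, 147 ± 19.9 and 169 ± 13.2 TPM.

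Heart by heart, pig 30 held the highest value of all 9 hearts in 9 of the 17 genes, and pigs 27 and 24 held the lowest in 6 and 5. Pig 30 also had the lowest mitochondrially encoded share, 38.2% against 44.8% to 55.3% in the other hearts. After removal of those mitochondrial genes and rescaling to the same total, pig 30 summed to 2265 and pig 28 of the same group to 2254, and pig 30 then led in 5 genes. Pig 24 remained the lowest heart, at 1331.

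**Figure D2:**
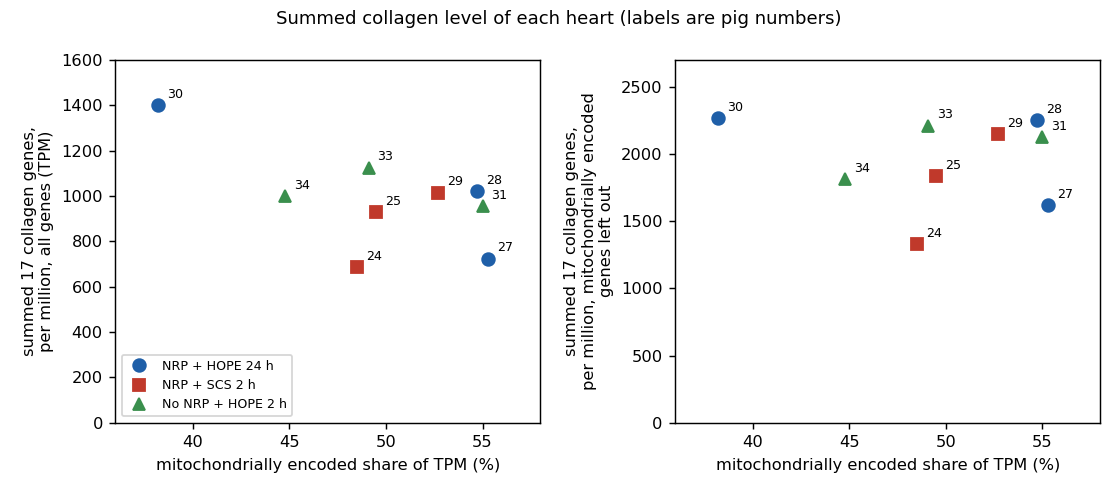
Summed level of the 17 collagen genes in each heart against its mitochondrially encoded share of TPM, in TPM (left) and after removal of the mitochondrial genes and rescaling to the same total (right); numbers are pigs. Pig 30 stands apart at 1400 TPM and a share of 38.2% on the left, and level with pigs 28 and 33 on the right.

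The comparison of Group 1 with Group 2 asks how 24 h of HOPE compares with 2 h of SCS in hearts that all had NRP. A gene was called where limma gave an adjusted p below 0.05 together with a log2 fold change beyond 1 in either direction. None of the 17 collagen genes was called, against 0.0255% of the 11782 genes tested. None passed an unadjusted p under 0.05 either, where 1.82% of all genes were higher and 3.14% lower. On the log2(TPM + 1) scale, 16 of the 17 genes had a fold change above 0, against 35.9% of all genes, with a median of 0.12 against -0.12 over all genes. With median-of-ratios scaling all 17 were above 0, against 50% of all genes. The count rests on pig 30. Without it, 6 of the 17 genes were above 0 and the median of the 17 was -0.03, while 19.9% of all genes were above 0. The median was 0.02 without pig 24 and 0.34 without pig 27. The groups did not overlap for 2 genes, COL5A1 and COL27A1, both higher after 24 h of HOPE, against 2.5% of all genes. No gene was lower without overlap, against 7.32%. COL27A1 read 1.104, 0.7685 and 1.126 TPM in Group 1 and at most 0.7662 TPM in Group 2, close to a tie. It passed the filter only through pigs 27 and 30 of Group 1 and pig 34, so its place in this count is not independent of the filter.

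COL5A1 (ENSSSCG00000005751), singled out after its values were seen, encodes the main chain of type V collagen. It read 21.5, 25.4 and 40.3 TPM after 24 h of HOPE and 17.1, 19.6 and 16.6 TPM after SCS. The lowest heart of Group 1 lay above the highest of Group 2. This amounted to a log2 fold change of 0.63 ± 0.30 (SE), with an unadjusted p of 0.0563 and an adjusted p of 0.993 by limma. Over the 17 alternative settings it ranged from 0.38, without pig 30, to 0.82, without pig 27, and its unadjusted p was under 0.05 in 4 of them.

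The abundant fibrillar chains differed less. COL3A1 read 341, 501.8 and 609.5 TPM in Group 1 and 279.5, 417 and 475 TPM in Group 2, a log2 fold change of 0.30 ± 0.27 that was 0.08 without pig 24, 0.12 without pig 30 and 0.54 without pig 27. COL1A2 read 94.1, 131 and 140.3 TPM in Group 1 and 78.1, 122.5 and 129 TPM in Group 2, a log2 fold change of 0.16 ± 0.28 that was -0.07 without pig 24, 0.05 without pig 30 and 0.34 without pig 27. In both genes the groups overlapped, and each group had a low heart, pig 27 in Group 1 and pig 24 in Group 2. COL5A2, which lies next to COL3A1 in the Sscrofa11.1 annotation of RefSeq, differed by 0.24 ± 0.37 and turned to -0.03 without pig 30.

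The basement membrane gene COL4A2 read 132, 178 and 322.5 TPM in Group 1 and 160.1, 168.5 and 210.0 TPM in Group 2. Pig 30 was the highest and pig 27 the lowest of these 6 hearts, so Group 1 spanned Group 2. Its log2 fold change was 0.14 ± 0.37 and turned to -0.22 without pig 30. COL4A5, an X-linked type IV chain, read 1.13, 0.347 and 0.990 TPM against 1.09, 0.496 and 0.557 TPM, a log2 fold change of 0.08 ± 0.34. Among the other types, COL6A2, COL15A1, COL6A3, COL12A1 and COL13A1 differed by 0.15, 0.09, -0.06, 0.06 and 0.25 on the log2 scale, with SEs from 0.30 to 0.42. Without pig 30, COL6A2 turned to -0.15, COL15A1 to -0.22 and COL12A1 to -0.13. COL12A1 was -0.17 without pig 28, COL13A1 was 0.00 without pig 24, 0.60 without pig 29 and 0.75 with a pseudocount of 0.1, and median-of-ratios scaling turned COL6A3 to 0.07.

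**Figure D3:**
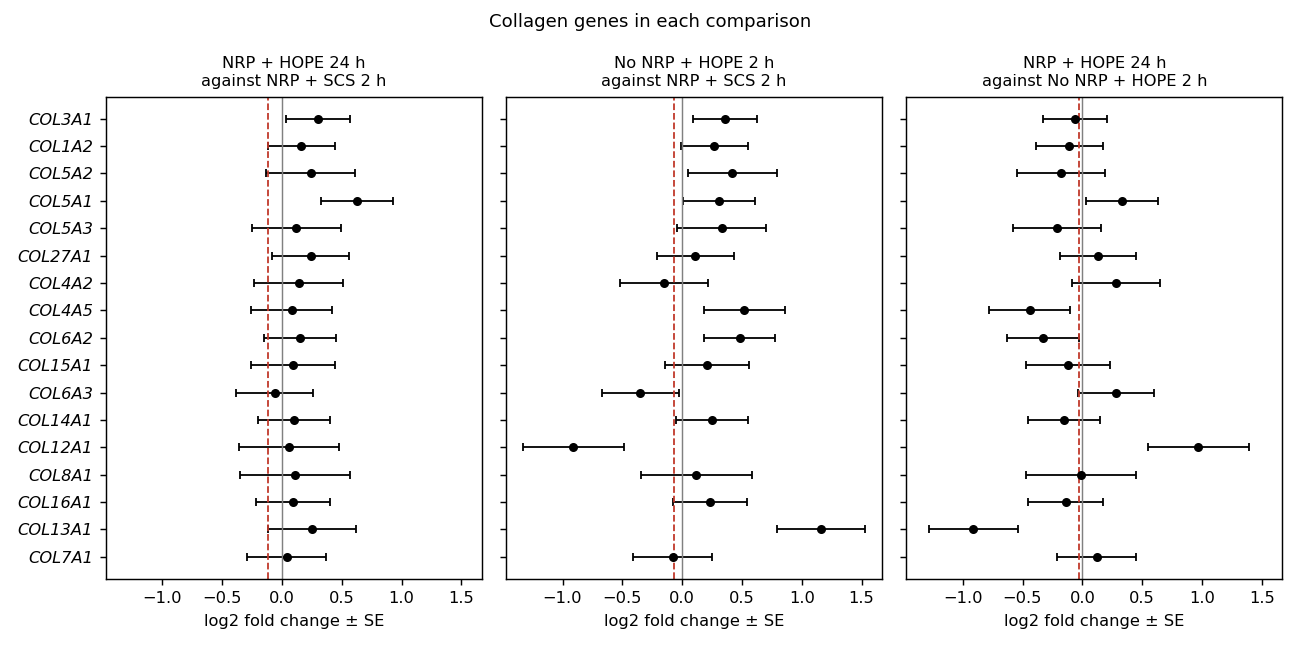
Log2 fold change on the log2(TPM + 1) scale with its SE for each of the 17 collagen genes in the 3 comparisons, n = 3 hearts per group; the dashed line is the median over all 11782 genes. COL12A1 and COL13A1 lie farthest from 0 in the middle and right panels, on opposite sides, and COL5A1 lies farthest from 0 in the left panel.

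The comparison of Group 3 with Group 2 asks what the absence of NRP does in hearts stored for 2 h, with the storage method and its temperature changing too. Again none of the 17 genes was called, against 0.0509% of all genes. At an unadjusted p under 0.05, 1 of 17 was higher without NRP, COL13A1, against 2.57% of all genes, and 1 was lower, COL12A1, against 4.65%. Of the 17 genes, 13 had a fold change above 0, against 42.2% of all genes, with a median of 0.25 against -0.07, and all 6 fibrillar genes were among them. That median was 0.12 without pig 24. In TPM, the groups did not overlap for 3 genes that were higher without NRP, COL13A1, COL3A1 and COL6A2, against 4.44% of all genes. The same held for 1 that was lower, COL6A3, against 10.3%.

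COL13A1 (ENSSSCG00000010256) encodes a transmembrane collagen found at cell-matrix junctions, such as the neuromuscular synapse. It read 2.28, 3.73 and 2.22 TPM without NRP and 0.165, 0.440 and 1.67 TPM in Group 2. Each heart without NRP was above each heart of Group 2, of which pig 29 came nearest. Without NRP the gene was thus higher by 1.16 ± 0.37 on the log2 scale, with an unadjusted p of 0.00701 and an adjusted p of 0.483 by limma. Its unadjusted p was under 0.05 in all 16 alternatives that could test it, with log2 fold changes from 0.91, without pig 24, to 2.13, with a pseudocount of 0.1, and adjusted p from 0.0553 to 0.999. The gene is low, and it passed the filter with 5 hearts, of which 3 were those without NRP.

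COL12A1 (ENSSSCG00000004484), a fibril-surface collagen of tissues under tension, lay on the other side. It read 5.0, 10.6 and 3.73 TPM without NRP and 10.6, 15.7 and 10.2 TPM in Group 2. Pigs 31 and 34 were low, while pig 33 lay within Group 2. The log2 fold change was -0.91 ± 0.42, with an unadjusted p of 0.0489 and an adjusted p of 0.689 by limma. The unadjusted p held under 0.05 in 6 of 17 alternatives, and it was lost when any single heart other than pig 27 or pig 33 was left out, with fold changes from -1.28 without pig 33 to -0.63 without pig 34.

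The plot of single genes shows how these patterns look by heart.

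**Figure D4:**
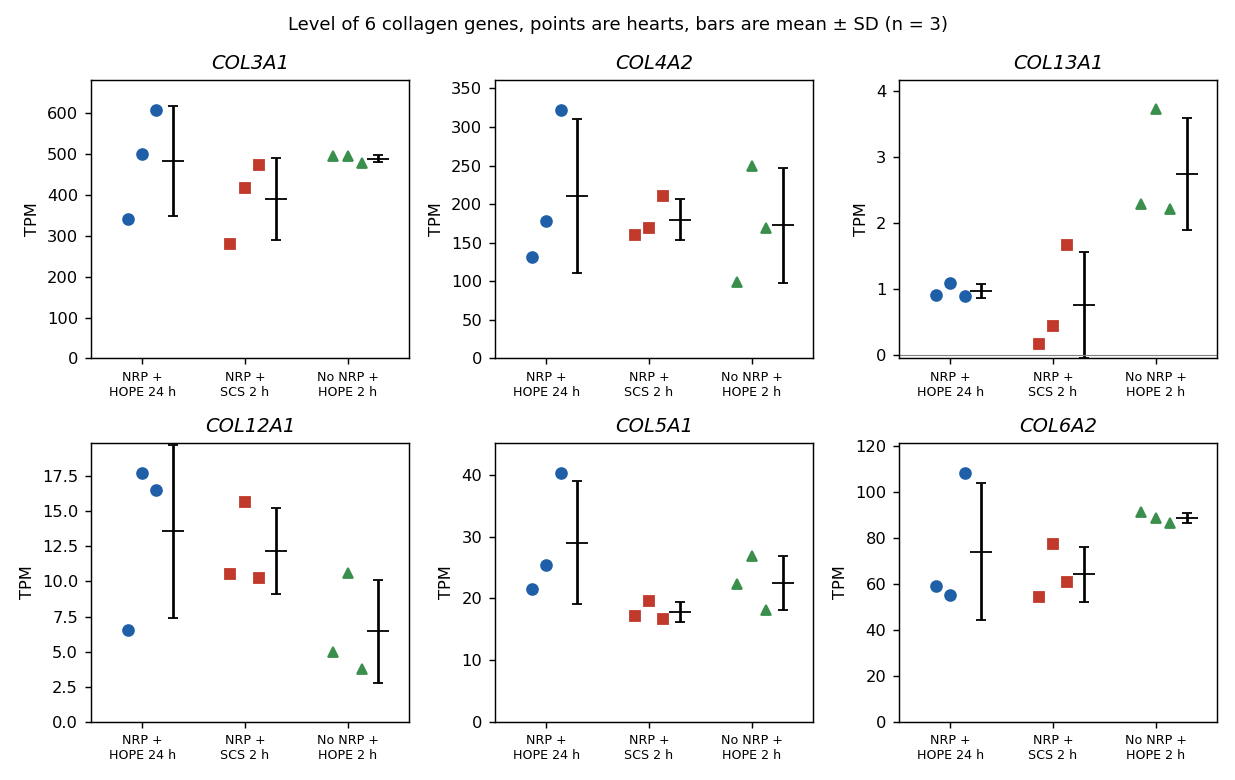
TPM of COL3A1, COL4A2, COL13A1, COL12A1, COL5A1 and COL6A2 in each heart (points) with the mean ± SD of 3 hearts (bars) in each group. COL13A1 is highest in the 3 hearts without NRP (2.22 to 3.73 TPM), and on the TPM scale COL6A2 lies in a narrow band there (86.8 to 91.3 TPM).

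Type VI collagen showed its chains on opposite sides of 0. COL6A2 (ENSSSCG00000028022) read 91.3, 88.6 and 86.8 TPM without NRP and 54.2, 77.6 and 60.7 TPM in Group 2, and the groups did not overlap. They differed by 0.48 ± 0.30 on the log2 scale, with an unadjusted p of 0.129 by limma, which was under 0.05 in 3 of 17 alternatives. COL6A3 (ENSSSCG00000027331) read 17.4, 21.7 and 21.1 TPM without NRP and 23.8, 27.5 and 26.0 TPM in Group 2, again with no overlap, a log2 fold change of -0.35 ± 0.32 and an unadjusted p of 0.295 by limma. Neither difference passed the test.

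COL3A1 read 495.6, 494.6 and 478.6 TPM without NRP, in TPM the tightest of its 3 groups at 489.6 ± 9.57 TPM (SD, n = 3). The highest heart of Group 2, pig 29 at 474.8 TPM, lay just below them. Median-of-ratios scaling divides pigs 31, 33 and 34 by 0.781, 1.08 and 1.18, and pig 29 by 1.07. On that scale pig 34 falls below pig 29, so the groups overlap, and Group 3 is no longer the tightest. From the TPM values, the difference was 0.36 ± 0.27 on the log2 scale, with an unadjusted p of 0.209 by limma. It was 0.14 without pig 24. COL1A2 read 144.3, 122.1 and 124.6 TPM, overlapping Group 2, with 0.27 ± 0.28, and COL5A2 differed by 0.42 ± 0.37, which were 0.05 and 0.20 without pig 24.

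In the basement membrane class, COL4A2 read 99.5, 248.8 and 168.5 TPM without NRP, a wider range than the 160.1 to 210.0 TPM of Group 2. Its log2 fold change of -0.15 ± 0.37 turned to 0.20 without pig 31, the lowest of the 9 hearts. COL4A5 read 1.05, 1.22 and 2.12 TPM without NRP, overlapping pig 24 of Group 2 at 1.09 TPM, with 0.52 ± 0.34. COL15A1 differed by 0.21 ± 0.35, which was 0.12 without pig 24 and 0.05 without pig 33, and COL4A5 by 0.34 without pig 34.

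The summed fibroblast markers were 481 to 578 TPM in Group 3 against 345 to 419 TPM in Group 2 and 357 to 479 TPM in Group 1, mostly from DCN, which encodes the collagen-binding proteoglycan decorin. Of the 5 tested, 4 had a fold change above 0 against Group 2, where 42.2% of all genes did, and 2 were higher at an unadjusted p under 0.05 by limma, where 2.57% of all genes were, PDGFRL (1.15 ± 0.36, unadjusted p of 0.0064) and FBLN1 (0.79 ± 0.35, unadjusted p of 0.043), while PDGFRA, a defining marker, read 1.60, 2.39 and 4.46 TPM against 4.32, 5.08 and 2.44 TPM. None of the 5 was listed at 0 in any group. In Group 1 against Group 2 all 5 fibroblast markers had a fold change above 0, against 35.9% of all genes, with a median of 0.11. Of the 5 endothelial markers tested there, 0 were above 0, with a median of -0.47. None of these markers had an unadjusted p under 0.05 by limma in that comparison. The part of these markers in the collagen values was not tested.

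The comparison of Group 1 with Group 3 shares its hearts with both comparisons above, so it adds no independent hearts. None of the 17 genes was called, against 0.0509% of all genes. At an unadjusted p under 0.05, COL12A1 was higher after 24 h of HOPE with NRP, against 2.78% of all genes, and COL13A1 lower, against 3.23%. Of the 17 genes, 6 had a fold change above 0, against 46.1% of all genes, with a median of -0.11 against -0.03. No gene was higher without overlap, against 2.97% of all genes, and 1 was lower without overlap, COL13A1, against 4.51%. The count above 0 was 12 without pig 27, where 61.1% of all genes were above 0, and 3 without pig 30, where 27.6% were. The collagen median turned to 0.18 without pig 27 and to 0.02 without pig 33, and was -0.24 without pig 30.

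COL12A1 read 6.51, 17.7 and 16.5 TPM in Group 1, where pig 27 was low, and overlapped the 3.73 to 10.6 TPM of Group 3. The log2 fold change was 0.97 ± 0.42, with an unadjusted p of 0.037 and an adjusted p of 0.811 by limma. The unadjusted p was under 0.05 in 11 of 17 alternatives and was lost without pig 28, 30, 31 or 34, where the fold changes were 0.73, 0.78, 0.87 and 0.70, with array weights (0.76) and with no filter on low values (0.97, unadjusted p of 0.0543 by limma). COL13A1 read 0.913, 1.09 and 0.900 TPM in Group 1, all below the 2.22 TPM of the lowest heart without NRP. The log2 fold change was -0.91 ± 0.37, with an unadjusted p of 0.027 and an adjusted p of 0.771 by limma, and the unadjusted p was under 0.05 in 12 of 16 alternatives. It was lost with a pseudocount of 0.1 and without pig 27, 30 or 33, where the fold changes were -1.38, -0.89, -0.88 and -0.73.

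Among the other tested collagen genes, fold changes lay between -0.44 for COL4A5 and 0.33 for COL5A1 in this comparison, the latter 0.07 without pig 30 and 0.51 without pig 27, and the former -0.24 without pig 28 and -0.26 without pig 34. COL3A1 differed by -0.06 ± 0.27, COL1A2 by -0.11 ± 0.28 and COL5A2 by -0.18 ± 0.37. COL4A2 and COL6A3 both stood at 0.28, with SEs of 0.37 and 0.32, and COL15A1 at -0.12 ± 0.35. COL6A2 stood at -0.33 ± 0.30, and its value depended on single hearts of Group 1. It was -0.63 without pig 30 (unadjusted p of 0.0189, adjusted p of 0.477 by limma), -0.20 without pig 27 and -0.15 without pig 28, and -0.55 with array weights (unadjusted p of 0.0372, adjusted p of 0.287 by limma).

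A ratio of 2 chains within a heart does not depend on how the heart was scaled. The ratios were described with no test, because the pairs were chosen after the data were seen. COL3A1 stood in a narrow ratio to COL1A2, between 3.40 and 4.34 in all 9 hearts, so the chains of types III and I varied together across hearts that differed up to 1.85-fold in COL1A2 itself. The ratio of COL6A2 to COL6A3 was 5.23, 4.08 and 4.12 without NRP, 2.28, 2.82 and 2.33 in Group 2 and 3.60, 2.42 and 2.74 in Group 1. Each heart without NRP was thus above each of the 6 hearts with NRP. COL5A1 and COL5A2 kept no such constant ratio, at 1.70, 0.943 and 1.22 in Group 1, 1.27, 0.939 and 0.702 in Group 2 and 1.06, 1.10 and 0.560 in Group 3.

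**Figure D5:**
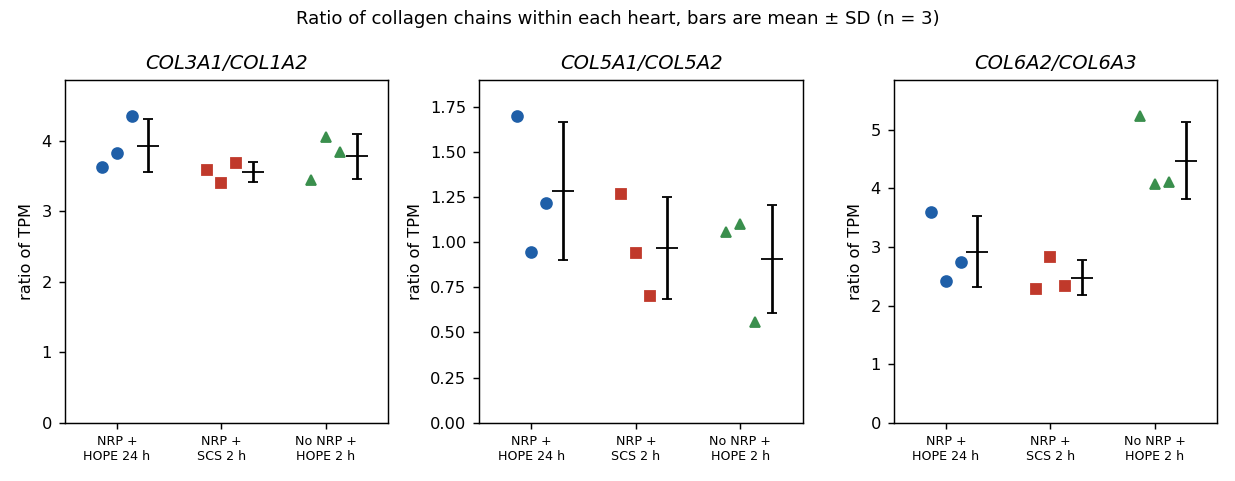
Ratio of TPM of 2 collagen chains in each heart (points) with the mean ± SD of 3 hearts (bars). COL3A1 over COL1A2 stays between 3.40 and 4.34, and COL6A2 over COL6A3 lies at 4.08 or above in the 3 hearts without NRP and at 3.60 or below in the other 6.

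The genes that make, trim and bind collagen were read from lists written from general knowledge, and none of their members was called in any comparison. Beside their medians stand those of all genes tested, -0.12 in Group 1 against Group 2, -0.07 in Group 3 against Group 2 and -0.03 in Group 1 against Group 3. Of 12 tested genes for collagen synthesis and folding, none had an unadjusted p under 0.05, against 4.97%, 7.22% and 6.01% of all genes in either direction in the 3 comparisons in that order. Without pig 30 there were 2 of 12 in Group 1 against Group 2 and 1 of 12 in Group 1 against Group 3, against 10.7% and 9.49% of all genes. The median log2 fold change was -0.11 in Group 1 against Group 2, where 2 of 12 were above 0 against 35.9% of all genes, 0.13 in Group 3 against Group 2 and -0.30 in Group 1 against Group 3. P3H1, a prolyl 3-hydroxylase, was the most abundant of the 12 tested at 24.4 TPM. Of the 18 genes written for this list 14 were listed, and P4HB, SERPINH1, PPIB and CRTAP were not among them. P3H1 was lower in Group 1 than in Group 2 by 0.52 ± 0.27 on the log2 scale, with an unadjusted p of 0.0784 by limma.

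Of 9 tested genes for processing and crosslinking, 1 had an unadjusted p under 0.05 in Group 3 against Group 2, where 2.57% of all genes were higher at that threshold. It was ADAMTS2, the protease that removes the amino-terminal propeptide of fibrillar procollagens. It read 3.40, 5.56 and 4.93 TPM without NRP and 1.10, 2.79 and 2.71 TPM in Group 2, with no overlap, as for 4.44% of all genes, and its log2 fold change was 0.85 ± 0.35 with an unadjusted p of 0.0322 by limma. The list's count was 0 without pig 24, 33 or 34 and 2 without pig 30 or 31. LOXL1, a crosslinking enzyme, differed by 0.86 ± 0.42 in the same comparison with an unadjusted p of 0.0604. The list's medians were 0.09, 0.12 and -0.03 in the 3 comparisons in the order above.

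The fibril-associated matrix list, with 11 genes tested, had medians of 0.16, 0.17 and -0.04. Its largest difference was in TNC, which encodes tenascin-C, a matrix protein induced by injury and strain. TNC read 9.19, 14.3 and 14.4 TPM in Group 1, 11.9, 5.36 and 4.48 TPM in Group 2 and 0.567, 6.04 and 1.38 TPM in Group 3. All hearts of Group 1 lay above all hearts of Group 3, as for 2.97% of all genes. The log2 fold change was 2.17 ± 0.50, with an unadjusted p of 0.00071 and an adjusted p of 0.263 by limma. Group 3 was below Group 2 by 1.36 ± 0.50, with an unadjusted p of 0.0166 by limma. POSTN, which encodes periostin, and PRELP, a small proteoglycan, differed by -0.66 and 0.82 in Group 3 against Group 2, with unadjusted p of 0.0438 and 0.0468 by limma. These are 1 higher and 2 lower of 11, against 2.57% and 4.65% of all genes, and the count of 3 was 0 without pig 24 or 31 and 1 without pig 25, 28 or 34. In Group 1 against Group 3, TNC was the 1 of 11, against 2.78% of all genes higher, and the count was 2 without pig 30.

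Among 8 collagen receptor genes the medians were -0.09, -0.23 and -0.01, and 1 had an unadjusted p under 0.05, in Group 3 against Group 2, where 4.65% of all genes were lower. DDR1, a collagen-activated receptor tyrosine kinase, was lower without NRP than in Group 2, at 6.29, 12.1 and 16.4 TPM against 22.3, 23.5 and 18.8 TPM. Its log2 fold change was -0.92 ± 0.42, with an unadjusted p of 0.0484 by limma. Pig 31 was the lowest of these hearts, and pig 34 came nearest to Group 2. The list's count was 0 without pig 24, 25, 29 or 33.

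In TGF-beta signaling, the pathway that drives collagen transcription in fibroblasts, 16 genes were tested and the medians were 0.02, -0.24 and 0.16. SMAD3, the transcription factor at its end, read 27.5, 40.6 and 78.1 TPM in Group 1, 20.7, 24.6 and 22.3 TPM in Group 2 and 11.1, 20.1 and 12 TPM in Group 3. The 3 groups did not overlap, in the order Group 1, Group 2, Group 3. The log2 fold change was 0.95 ± 0.37 for Group 1 against Group 2 (unadjusted p of 0.022, adjusted p of 0.933 by limma) and 1.60 ± 0.37 for Group 1 against Group 3 (unadjusted p of 0.000714, adjusted p of 0.263 by limma). TGIF1, a repressor of the pathway, was higher in Group 1 than in Group 2 by 0.70 ± 0.29, with an unadjusted p of 0.0336 by limma. SMAD3 and TGIF1 were thus 2 of 16 higher in Group 1 than in Group 2, against 1.82% of all genes, and this count was 0 without pig 24 and 1 without pig 25, 28 or 29. Against Group 3, SMAD3 was the 1 of 16 higher, against 2.78% of all genes, and the count was 3 without pig 33. TGFB1, the main ligand, had the highest level of the 16 tested at 111 TPM. It read 83.1, 134 and 35.6 TPM in Group 3 against 125, 121 and 128 TPM in Group 2. The difference of -0.75 ± 0.39 did not pass the test. Pig 34 was the lowest of these hearts, and pig 33 lay above all of Group 2. CTGF, a classical target gene, read 27.4, 183 and 76.1 TPM in Group 1 and overlapped in all groups.

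Mural markers summed to 194 to 314 TPM in Group 1 and 373 to 442 TPM in Group 3. Of 5 tested, none was called and 2 were lower in Group 1 at an unadjusted p under 0.05 by limma, against 3.23% of all genes, ACTA2 (-1.28 ± 0.36) and NOTCH3 (-1.05 ± 0.41). The other 3 ran from -0.49 for TAGLN to 0.44 and did not pass. Of 6 myofibroblast markers, TNC was higher and CILP lower (-1.15 ± 0.45) in Group 1 than in Group 3, against 2.78% and 3.23% of all genes, and TNC and POSTN were lower in Group 3 than in Group 2, against 4.65% of all genes, at an unadjusted p under 0.05 by limma. Of 7 cardiomyocyte markers, 1, ACTC1, was higher in Group 1 than in Group 3 (0.76, unadjusted p of 0.0488 by limma), against 2.78% of all genes, while 3 of the 7 were above 0 and their median was -0.01. No endothelial, leukocyte, mesothelial, Schwann cell or adipocyte marker tested had an unadjusted p under 0.05 by limma. The part of these cell types in the collagen values was not tested.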

How the data were processed

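RNA sequencing of 9 labelled hearts was used. Libraries were enriched for mRNA with oligo(dT) beads and sequenced in paired ends. According to the study's methods and the submitters' processing notes, the authors trimmed reads with Trimmomatic 0.36, mapped them to an Ensembl pig genome with STAR 2.5.2b and counted unique exon reads with featureCounts (Subread 1.5.2). The genome build and the gene lengths behind TPM are not given in the sources used here, and no coordinates are printed. The authors deposited TPM values, and each column sums to 1000000. Because counting is not stated to use strand, overlapping genes cannot be separated. A further 9 columns could not be tied to a labelled sample and were not used. TPM keeps no read depth.

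The 11782 of 25149 genes that reached 1 TPM in 3 or more hearts were fitted as log2(TPM + 1) with limma 3.58.1 in R 4.3.3, using a group-means model over the 9 hearts and eBayes with trend. Tests were two-sided, with Benjamini-Hochberg adjustment over all 11782 genes. Fold changes on this scale understate the change of low genes. Fold changes were given for the 3 most abundant tested genes of each class and for those with an unadjusted p under 0.05 or an absolute log2 fold change over 1. The members, classes and gene lists were chosen with earlier results of these data known. Of each gene list, the 3 largest differences and the 2 most abundant members could be named. Planned ratios with COL1A1 and COL4A1 could not be computed, since neither is analysed here. Alternatives left out each heart in turn, used array weights, dropped the trend, fitted just the 6 hearts compared, removed the mitochondrially encoded genes, scaled by median-of-ratios, set the pseudocount to 0.1, or changed the filter to none or to a mean of 5 TPM or more. No pig is shared between groups, so no pairing was used. Each heart gave 1 biopsy, so differences between pigs and between biopsies cannot be told apart.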

Additional observations from a re-analysis of the deposited data

How the results depend on the processing

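No collagen gene was called in any comparison under any alternative. No paired analysis was possible because the groups share no pig numbers.

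At an unadjusted p under 0.05, the count of collagen genes higher in Group 1 than in Group 2, 0 as reported, was 2 with no filter on low values (COL5A1 and COL17A1, which averages under 1 TPM), 1 with median-of-ratios scaling, 1 with mitochondrially encoded genes left out (both COL5A1), and 0 to 1 when each heart was left out. In Group 3 against Group 2, the count higher, 1 as reported, was 0 with a mean of at least 5 TPM, which drops COL13A1, 2 with median-of-ratios scaling, with only the 6 hearts compared and with array weights, and 1 to 2 when each heart was left out. The count lower, 1 as reported, was 0 with median-of-ratios scaling, without trend and with array weights, and 0 to 1 when each heart was left out. In Group 1 against Group 3, the count higher was 0 with array weights and 0 to 1 when each heart was left out. The count lower was 0 with a pseudocount of 0.1 and with a mean of at least 5 TPM, 2 with no filter and with array weights, and 0 to 1 when each heart was left out.

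Counts of positive fold changes were 10 of 11 and 8 of 11 with a mean of at least 5 TPM in Group 1 and Group 3 against Group 2, where 33.1% and 36.4% of all genes were above 0. With no filter, which adds the members under it, they were 20 of 26 in Group 3 against Group 2 and 10 of 26 in Group 1 against Group 3, where 44.6% and 45.6% of all genes were. When each heart was left out they ran from 6 to 16 in Group 1 against Group 2 and from 3 to 12 in Group 1 against Group 3, while the share over all genes ran from 19.9% to 54.6% and from 27.6% to 61.1%.

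Array weights turned the fold changes of COL4A5 (-0.11) and COL6A2 (-0.13) in Group 1 against Group 2 and of COL4A2 in the other comparisons (0.24 in Group 3 against Group 2, -0.21 in Group 1 against Group 3), and median-of-ratios scaling turned COL6A3 to 0.07 in Group 1 against Group 2. The cause was not tested. Leaving out each heart, the ranges that crossed 0 in Group 1 against Group 2 were -0.07 to 0.34 for COL1A2, -0.03 to 0.64 for COL5A2, -0.22 to 0.42 for COL4A2, -0.05 to 0.28 for COL4A5, -0.15 to 0.33 for COL6A2, -0.22 to 0.47 for COL15A1, -0.40 to 0.21 for COL6A3 and -0.17 to 0.49 for COL12A1. In Group 3 against Group 2, COL4A2 ran from -0.46 to 0.20. In Group 1 against Group 3 the ranges were -0.24 to 0.18 for COL3A1, -0.22 to 0.06 for COL1A2, -0.45 to 0.21 for COL5A2, -0.07 to 0.60 for COL4A2, -0.43 to 0.26 for COL15A1 and -0.05 to 0.56 for COL6A3.

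Leaving out the mitochondrially encoded genes rescales every sum by construction, to 1323, 1111 and 1368 for the fibrillar genes, 405, 364 and 341 for the type IV genes and 318, 295 and 339 for the others in Groups 1, 2 and 3. Median-of-ratios scaling gave 697 for the fibrillar genes of Group 3. It moved the median of all genes in Group 1 against Group 2 from -0.12 to 0.00, and that of the collagen genes from 0.12 to 0.25. A call required a log2 fold change beyond 1, so smaller differences could not be called.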
